A study of Mus musculus with 17 samples.

Results

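Intercalated cells are the acid and base handling cells of the collecting duct. Here 10 genes that mark them were followed by name: Foxi1, Hmx2, Slc4a1, Aqp6, Slc26a4, Slc4a9, Insrr, Rhbg, Rhcg and Car2. They were read out of 35971 genes in 17 whole kidney libraries, and all 10 were among the 17011 genes with enough counts to be tested. The kidneys came from a mouse model of TFE3-rearranged renal cell carcinoma, in which the fusion transcription factor PRCC-TFE3 is switched on in kidney epithelium. Every animal, the controls included, carried the lsl-PRCC-TFE3 knockin at Rosa26, which is silent until Cre removes a stop cassette. Cre was driven by the Ksp (Cadherin 16) promoter, which is active in tubular epithelium.

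The 5 groups were Cre(−) kidneys (n = 4, KSP-Cre(-), so without the fusion), PRCC-TFE3 KI kidneys (KI, n = 3, KSP-Cre(+)), PRCC-TFE3 KI/Hif1α KO kidneys (n = 4, HIF1af/f added), PRCC-TFE3 KI/Hif2α KO kidneys (n = 3, HIF2af/f added), and kidneys with both floxed genes added, called PRCC-TFE3 KI/Hif1α/Hif2α DKO (DKO, n = 3). Cre(−) kidneys 1 and 2 also carried HIF1af/f, and kidneys 3 and 4 carried no floxed Hif gene. The study describes kidneys at 8 months of age for histology, and the labels give no age for the RNA. Each kidney gave 1 library.

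Intercalated cells are scattered among the principal cells of the collecting duct and connecting tubule. Type A cells secrete acid through a proton pump and return bicarbonate to the blood, type B cells secrete bicarbonate, and a further form holds features of both. The transcription factor Foxi1 is required for the identity of all of them, and Notch signalling steers neighbouring cells to the principal cell fate instead.

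Library totals lay between 16504419 and 24668827 counts. Mitochondrial genes took 19.1% to 23.1% of the counts in Cre(−) kidneys and 8.32% to 12.4% in the others. Gpnmb, a known target of TFE3 fusions, was between 0.326 and 1.47 TPM (a transcript level corrected for length and library total) in Cre(−) kidneys and at least 2289 TPM in every kidney with Cre. Hif1a was at 51.3 to 67.5 TPM in the Hif1α KO kidneys and at 24.0 to 34.3 TPM in Cre(−) kidneys, and Epas1, which encodes Hif2α, was at 40.4 to 44.0 TPM in the Hif2α KO kidneys and at 37.8 to 51.5 TPM in Cre(−) kidneys. In KI kidneys Hif1a was at 58.5 to 81.1 TPM, which overlapped Hif1α KO. Epas1 was at 46.7 to 55.05 TPM in KI kidneys, above every Hif2α KO kidney. These sums cover whole genes and not the floxed exons alone, so they do not check the knockout labels. The library numbers largely follow the groups, so a batch of preparation and the genotype cannot be told apart.

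Of the 10 genes, 5 have an upstream sequence in the RefSeq promoter table for GRCm38.p6. The 250 bases before the RefSeq start site are shown for 3 of them: Foxi1, the factor behind the cell type, Slc26a4, among the genes that fell most, and Aqp6, which fell least. Capitals mark matches to CACGTG (the E-box bound by TFE3 and its relatives), ACGTG or GCGTG (cores of the hypoxia response element; ACGTG overlaps CACGTG) and TGTTTAC (a forkhead site), searched on both strands.
Foxi1, chr11:34208090-34208339, minus strand: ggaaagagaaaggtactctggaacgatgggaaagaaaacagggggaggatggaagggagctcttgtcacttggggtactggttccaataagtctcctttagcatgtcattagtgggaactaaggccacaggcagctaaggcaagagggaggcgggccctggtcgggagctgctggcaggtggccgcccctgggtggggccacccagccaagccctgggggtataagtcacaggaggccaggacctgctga
Slc26a4, chr12:31559985-31560234, minus strand: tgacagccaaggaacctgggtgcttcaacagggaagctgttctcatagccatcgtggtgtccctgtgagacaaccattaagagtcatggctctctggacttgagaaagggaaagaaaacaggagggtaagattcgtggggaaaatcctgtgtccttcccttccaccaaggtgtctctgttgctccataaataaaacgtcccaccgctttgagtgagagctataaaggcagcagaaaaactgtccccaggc
Aqp6, chr15:99600950-99601199, plus strand: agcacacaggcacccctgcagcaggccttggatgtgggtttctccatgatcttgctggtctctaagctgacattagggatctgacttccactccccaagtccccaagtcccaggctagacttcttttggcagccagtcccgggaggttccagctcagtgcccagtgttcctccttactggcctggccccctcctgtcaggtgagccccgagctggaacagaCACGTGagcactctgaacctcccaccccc
The RefSeq start of Aqp6, at 99601200, lies before the GENCODE gene start at 99601400. The Aqp6 window holds a CACGTG from 29 to 24 bases before the start, and the Foxi1 and Slc26a4 windows hold no match to these letters. The Hmx2 and Rhcg windows hold none either. The M-box (TCAYRTGA), which the study names as the site of this factor family, was not searched. Among 32851 windows of the same length in the table, 6.02% hold CACGTG, 16.6% ACGTG, 28.2% GCGTG and 3.17% TGTTTAC. A match is a string of letters in this window and not a measured site.

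The first comparison asked how the level of these genes differed between kidneys with and without the fusion. With the fusion alone all 10 genes passed as lower (edgeR's quasi-likelihood test, adjusted p under 0.05 over all tested genes), where 29.3% of all tested genes were lower. Of all calls 51.9% were higher, and 74.1% were higher on library totals in place of TMM scaling. For all 10 the KI and Cre(−) kidneys did not overlap in CPM (counts as a share of the library, scaled by TMM), against 27.7% of all tested genes. In TPM 1 of them, Aqp6, overlapped, with 37.5 TPM in KI kidney 1 and 34.5 TPM in Cre(−) kidney 1. The median log2 fold change of the 10 genes was −2.66, and over all genes it was 0.03. In bulk tissue, fewer intercalated cells and less RNA per cell cannot be told apart.

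**Figure D1:**
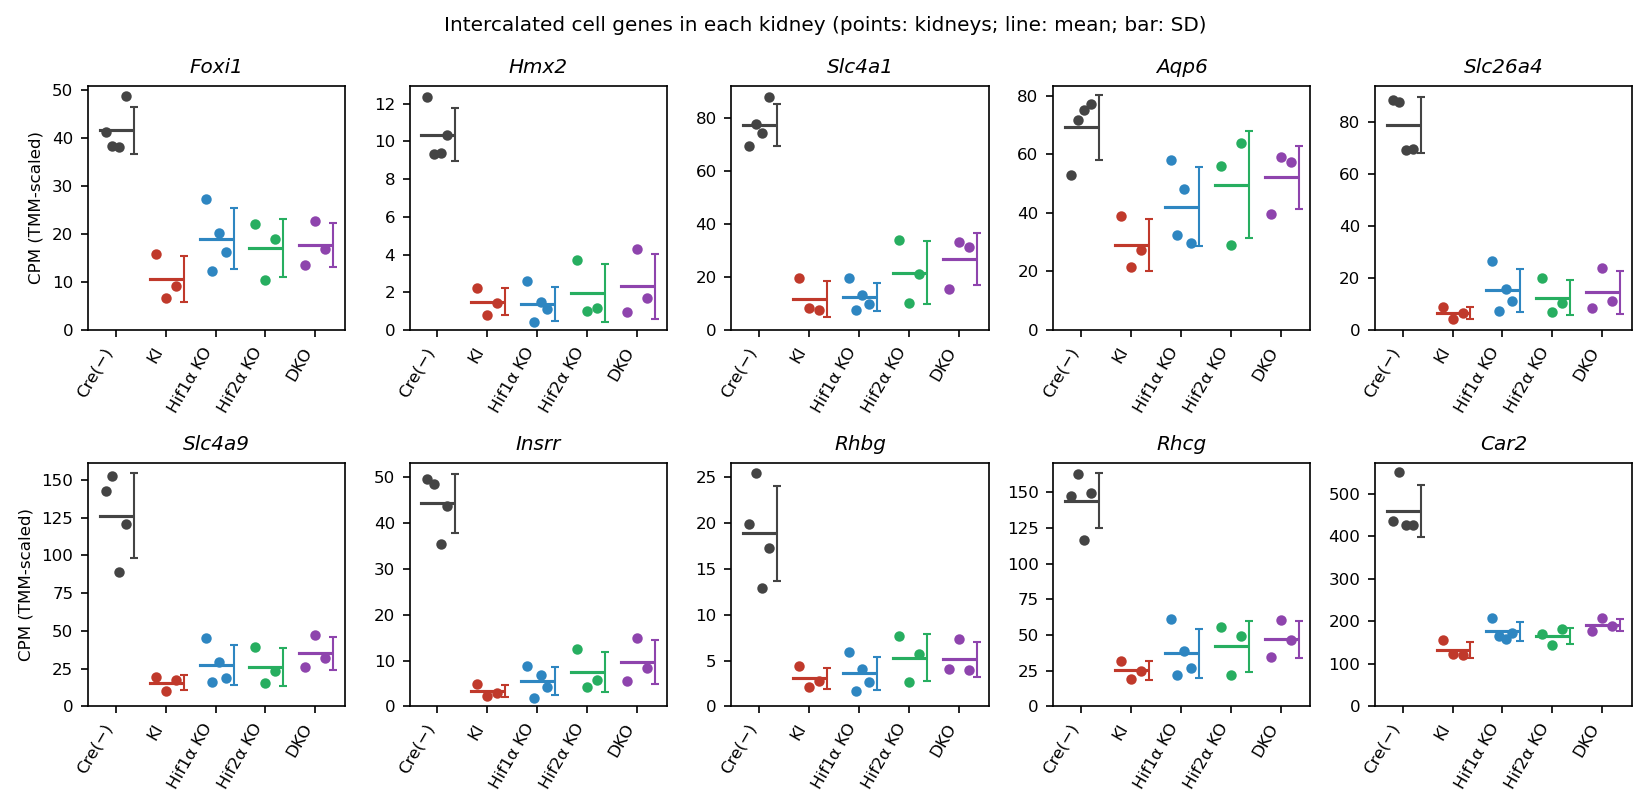
CPM of the 10 intercalated cell genes in each of 17 kidneys, by group; points are kidneys, the line is the group mean and the bar is the SD. All KI kidneys (red) lie under all Cre(−) kidneys (grey) in every panel, while Aqp6 in the Hif knockout groups overlaps Cre(−).

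Foxi1, the forkhead factor (ENSMUSG00000047861.2, chr11:34204338-34208089), was at 41.3, 38.2, 38.0 and 48.6 CPM in the Cre(−) kidneys and at 15.8, 6.57 and 9.24 CPM in the KI kidneys. It was lower in each KI kidney than in any Cre(−) kidney, with KI kidney 1 the least affected. Its log2 fold change was −1.98 ± 0.33 (SE, edgeR adjusted p = 9.04e-05). Hmx2, a homeobox factor (ENSMUSG00000050100.14, chr7:131548773-131558014), was at 12.3, 9.32, 9.40 and 10.4 CPM in Cre(−) kidneys and at 2.24, 0.81 and 1.43 CPM in KI kidneys. The level rested on 15 to 39 counts per KI library. Its log2 fold change was −2.79 ± 0.61 (SE, edgeR adjusted p = 0.000992).

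Among genes used by type A cells, Slc4a1 encodes the chloride-bicarbonate exchanger AE1 of their basolateral side and of red cells (ENSMUSG00000006574.15, chr11:102348824-102366203). It was at 69.3, 77.5, 74.3 and 87.8 CPM in Cre(−) kidneys and at 19.7, 8.13 and 7.65 CPM in KI kidneys, which did not overlap. The log2 fold change was −2.71 ± 0.44 (SE, edgeR adjusted p = 7.68e-05). The kidney and red cell forms of Slc4a1 were not separated. Summed TPM of 10 red cell markers was 812 to 1870 in Cre(−) kidneys and 66.1, 86.4 and 1156 in KI kidneys. In KI kidney 3, where that sum was in the Cre(−) range, Slc4a1 was at 7.65 CPM, close to the 8.13 CPM of KI kidney 2. The part of red cells in the Slc4a1 level was not tested. Aqp6, a channel of intracellular vesicles (ENSMUSG00000043144.6, chr15:99601400-99605477), was at 52.9, 71.7, 75.1 and 77.0 CPM in Cre(−) kidneys and at 38.8, 21.4 and 27.2 CPM in KI kidneys. The 2 groups lay closer than for the other 9 genes, at −1.25 ± 0.30 (log2 fold change and SE, edgeR adjusted p = 0.00181).

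Next were genes of the base-secreting cells. Slc26a4 encodes pendrin, the apical chloride-bicarbonate exchanger of type B and non-A, non-B cells (ENSMUSG00000020651.8, chr12:31519827-31559969). Its level was 88.8, 87.8, 69.4 and 70.0 CPM in Cre(−) kidneys and 8.91, 4.20 and 6.50 CPM in KI kidneys, so that the KI mean was 8.28% of the Cre(−) mean. The log2 fold change was −3.60 ± 0.49 (SE, edgeR adjusted p = 1.24e-05). Insrr, a receptor that senses alkaline pH (ENSMUSG00000005640.11, chr3:87796951-87816101), was at 49.5, 48.5, 35.3 and 43.6 CPM in Cre(−) kidneys and at 4.83, 2.37 and 2.97 CPM in KI kidneys. It had the largest change of the 10, −3.71 ± 0.51 (log2 fold change and SE, edgeR adjusted p = 1.45e-05). Slc4a9, the basolateral anion exchanger AE4 of type B cells (ENSMUSG00000024485.16, chr18:36528147-36556273), was at 142.6, 152.4, 89.0 and 120.5 CPM in Cre(−) kidneys and at 19.7, 10.2 and 17.6 CPM in KI kidneys. Its log2 fold change was −3.00 ± 0.41 (SE, edgeR adjusted p = 1.17e-05). The KI mean of Slc4a9 was 12.5% of the Cre(−) mean in CPM and 22.1% in TPM, and the noncoding transcript Slc4a9-204 held 27.4% to 42.1% of its TPM in KI kidneys and 5.19% to 23.4% in Cre(−) kidneys.

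Both Rh family ammonia transporters were lower. Rhcg, found at the apical and basolateral side (ENSMUSG00000030549.6, chr7:79593363-79617657), was at 147.3, 163.1, 117.0 and 149.8 CPM in Cre(−) kidneys and at 32.2, 19.0 and 24.8 CPM in KI kidneys. Rhbg, its basolateral relative (ENSMUSG00000104445.1, chr3:88242874-88254709), was at 19.9, 25.4, 13.0 and 17.2 CPM in Cre(−) kidneys and at 4.37, 2.15 and 2.74 CPM in KI kidneys. The groups did not overlap for either gene, and the log2 fold changes were −2.51 ± 0.37 and −2.61 ± 0.45 (SE). Exons of Rhbg overlap the gene model Gm38392 on the same strand by up to 187 bases, so reads there could be assigned to either.

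Car2 encodes the cytosolic carbonic anhydrase that supplies protons and bicarbonate (ENSMUSG00000027562.12, chr3:14886273-14900770), and principal cells, red cells and osteoclasts make it too. It had the highest TPM of the 10 genes in every kidney. Its level was 436.9, 552.0, 426.4 and 426.2 CPM in Cre(−) kidneys and 155.5, 122.3 and 121.8 CPM in KI kidneys. The change was among the smaller ones, −1.79 ± 0.13 (log2 fold change and SE), and had the lowest adjusted p of the 10 (edgeR, 2.91e-08). The summed level of 8 macrophage and osteoclast genes was 78.2 to 88.6 TPM in Cre(−) kidneys and 1643 to 1829 TPM in KI kidneys. Most of the KI sum was Cd68, at 3.31 to 5.89 TPM in Cre(−) kidneys and 1563 to 1745 TPM in KI kidneys. Adgre1 was at 3.91 to 6.31 CPM in Cre(−) and 12.0 to 17.8 CPM in KI kidneys, and Ptprc at 15.0 to 18.6 and 13.7 to 61.7 CPM. Csf1r went the other way, at 89.2 to 100.85 and 82.8 to 84.6 CPM. Of the genes in that list made by osteoclasts, Ctsk was at 3.32 to 4.74 CPM in Cre(−) kidneys and 9.69 to 12.1 CPM in KI kidneys, and Acp5 at 33.0 to 41.0 CPM and 11.6 to 33.4 CPM. Mmp9 and Ocstamp were at no more than 1.18 and 0.628 CPM in KI kidneys. The part of these cells in the Car2 level was not tested.

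The 3 groups with floxed Hif genes were then set against the same Cre(−) kidneys, which all 4 comparisons share. In Hif1α KO kidneys 10 of the 10 genes were lower, with 30.1% of all tested genes lower, and 9 did not overlap Cre(−), with 27.3% of all genes. In Hif2α KO kidneys 9 were lower and 9 did not overlap, against 29.9% and 28.8% of all genes. In DKO kidneys 9 were lower and 9 did not overlap, against 27.9% and 28.5% of all genes. The medians of the 10 log2 fold changes were −2.29, −1.83 and −1.73 in that order. Of all calls in these comparisons 51.5%, 51.7% and 52.1% were higher, and 76.2%, 79.1% and 81.6% on library totals.

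**Figure D2:**
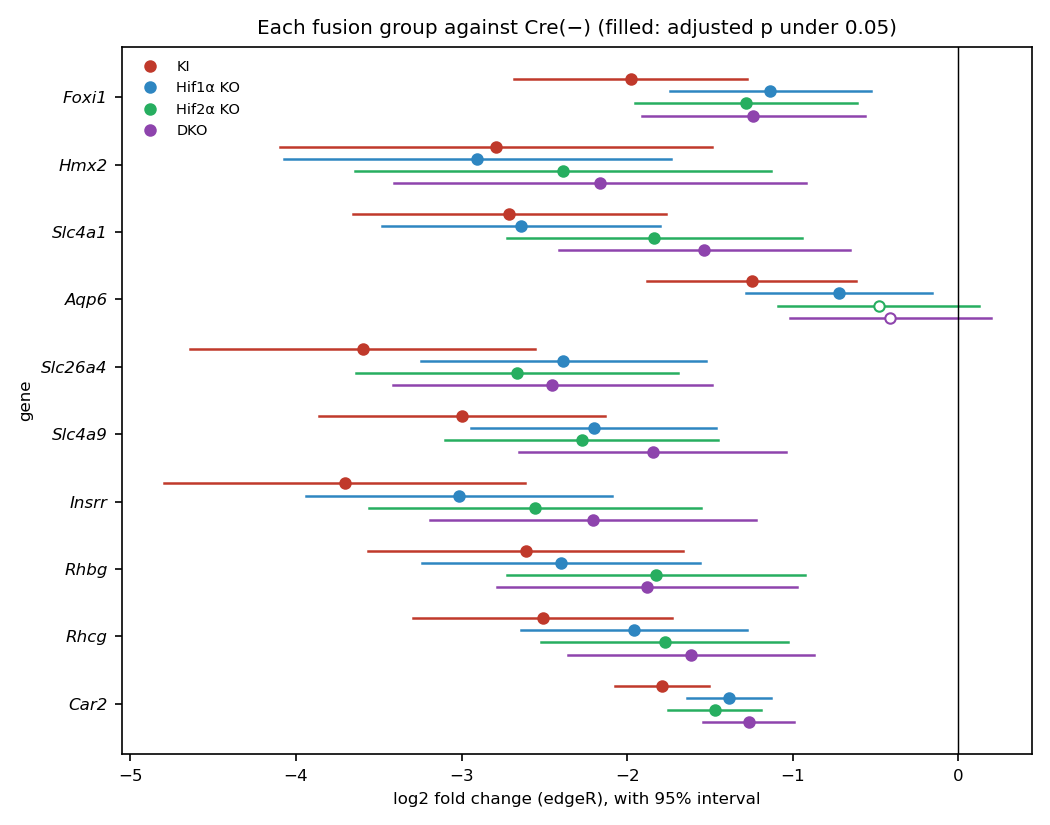
Log2 fold change of each gene against Cre(−) with its 95% interval, for KI and the 3 Hif knockout groups; filled points have an adjusted p under 0.05. Every point lies left of 0, and the open points are Aqp6 in Hif2α KO and in DKO.

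Aqp6 was the exception. Its level was 58.0, 32.5, 48.2 and 29.5 CPM with Hif1α KO, 55.9, 28.9 and 63.9 CPM with Hif2α KO and 39.6, 59.1 and 57.4 CPM with DKO. All 3 groups overlapped the Cre(−) range of 52.9 to 77.0 CPM. The log2 fold changes were −0.72, −0.48 and −0.41, with edgeR adjusted p of 0.0268, 0.156 and 0.23. The Hif1α KO call was lost without Cre(−) kidney 3 or 4 or Hif1α KO kidney 2 or 4 (adjusted p between 0.0548 and 0.0843). It was also lost on library totals (−0.37, edgeR adjusted p = 0.228) and with limma on log2 TPM (adjusted p = 0.302 and 0.300). Against only the Cre(−) kidneys that carried HIF1af/f the difference was −0.58 and did not pass (edgeR adjusted p = 0.152). The DKO difference was 0.04 on library totals.

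Pendrin stayed low in all groups. Slc26a4 was at 26.6, 7.27, 15.8 and 11.2 CPM in Hif1α KO, 19.9, 7.05 and 10.3 CPM in Hif2α KO and 8.57, 23.8 and 11.1 CPM in DKO kidneys, all under the lowest Cre(−) kidney at 69.4 CPM. Slc4a1 was at 19.5, 7.37, 13.0 and 9.91 CPM in Hif1α KO, 33.8, 10.2 and 20.9 CPM in Hif2α KO and 15.5, 33.2 and 31.4 CPM in DKO kidneys, again with no overlap with Cre(−). The group means were 16.1%, 28.0% and 34.6% of the Cre(−) mean. Foxi1 was at 27.2, 12.2, 20.2 and 16.3 CPM in Hif1α KO, 21.9, 10.3 and 18.9 CPM in Hif2α KO and 13.5, 22.6 and 16.8 CPM in DKO kidneys, or 45.7%, 41.1% and 42.5% of the Cre(−) mean.

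Hmx2 was at 2.57, 0.42, 1.49 and 1.09 CPM with Hif1α KO, 3.71, 1.01 and 1.16 CPM with Hif2α KO and 0.97, 4.27 and 1.71 CPM with DKO. All lay under the Cre(−) range of 9.32 to 12.3 CPM, and the lowest rested on 8 counts. Slc4a9 was at 45.1, 16.3, 29.6 and 19.1 CPM with Hif1α KO, 39.7, 15.3 and 23.1 CPM with Hif2α KO and 25.8, 47.2 and 32.4 CPM with DKO, again with no overlap with the Cre(−) kidneys. Insrr was at 8.84, 1.92, 6.92 and 4.29 CPM with Hif1α KO, 12.5, 4.20 and 5.77 CPM with Hif2α KO and 5.505, 14.9 and 8.40 CPM with DKO. The lowest Cre(−) kidney had 35.3 CPM of Insrr, above all of these.

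For both ammonia transporters no kidney with Cre reached the Cre(−) range. Rhcg was at 61.1, 22.4, 38.7 and 26.8 CPM with Hif1α KO, 55.6, 21.7 and 49.2 CPM with Hif2α KO and 34.7, 60.3 and 46.4 CPM with DKO. Rhbg was at 5.91, 1.71, 4.13 and 2.65 CPM with Hif1α KO, 7.65, 2.63 and 5.72 CPM with Hif2α KO and 4.09, 7.38 and 3.95 CPM with DKO. For Car2 the values were 207.8, 165.2, 159.7 and 172.6 CPM with Hif1α KO and 170.4, 145.6 and 182 CPM with Hif2α KO, all under the lowest Cre(−) kidney at 426.2 CPM, and the log2 fold changes against Cre(−) were −1.38 and −1.47.

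In TPM, which allows genes to be ordered, the Cre(−) means ran from Car2 (298 ± 55.8, SD, n = 4) through Rhcg (82.0 ± 13.6), Slc4a9 (52.9 ± 10.3), Aqp6 (47.8 ± 8.92), Slc26a4 (28.9 ± 4.69), Foxi1 (19.9 ± 1.73), Slc4a1 (19.1 ± 1.96), Rhbg (11.2 ± 3.56) and Insrr (9.93 ± 1.68) to Hmx2 (6.33 ± 0.53). Slc4a9 and Aqp6, Foxi1 and Slc4a1, and Rhbg and Insrr overlapped between kidneys. In KI kidneys Insrr was the lowest of the 10 in each kidney, and Hmx2 was the lowest in each kidney of the other groups.

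The next comparison asked whether loss of Hif1α, Hif2α or both changed the level among kidneys with the fusion. In Hif1α KO against KI, 0 of the 10 genes passed the threshold by edgeR, where 2.57% of all genes were higher and 2.86% lower. At an unadjusted p under 0.05, 3 were higher, against 11.2% of all genes, and DESeq2 called 2 of them higher (Slc26a4 and Car2), against 4.51% of the genes it tested. The groups did not overlap for 1 gene, Car2, against 8.96% of all genes. In Hif2α KO against KI, edgeR called 0, with 0.741% of all genes higher and 0.647% lower, and DESeq2 called 0, with 3.07% higher. At an unadjusted p under 0.05, 3 were higher, against 10.2% of all genes, and 0 did not overlap, against 9.52%. In DKO against KI 1 gene was higher by edgeR, where 6.53% of all genes were, and 5 by DESeq2 (Car2, Insrr, Slc4a9, Aqp6 and Slc4a1), where 8.52% were. At an unadjusted p under 0.05, 8 were higher, against 14.9% of all genes, and 5 did not overlap, against 16.5%. The fold changes were positive for 9, 10 and 10 genes, with medians of 0.54, 0.75 and 0.87 on the log2 scale. Over all genes the medians were −0.003, −0.007 and −0.003. In the same order they were 0.91, 0.71 and 1.125 for thick ascending limb and 1.465, 0.94 and 1.36 for proximal tubule genes. They were 0.84, 0.44 and 0.59 for distal convoluted tubule, 0.49, 0.83 and 1.06 for principal cell, and 0.42, 0.22 and 0.35 for podocyte genes. Whether these lists differed was not tested. The comparisons share the KI kidneys.

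**Figure D3:**
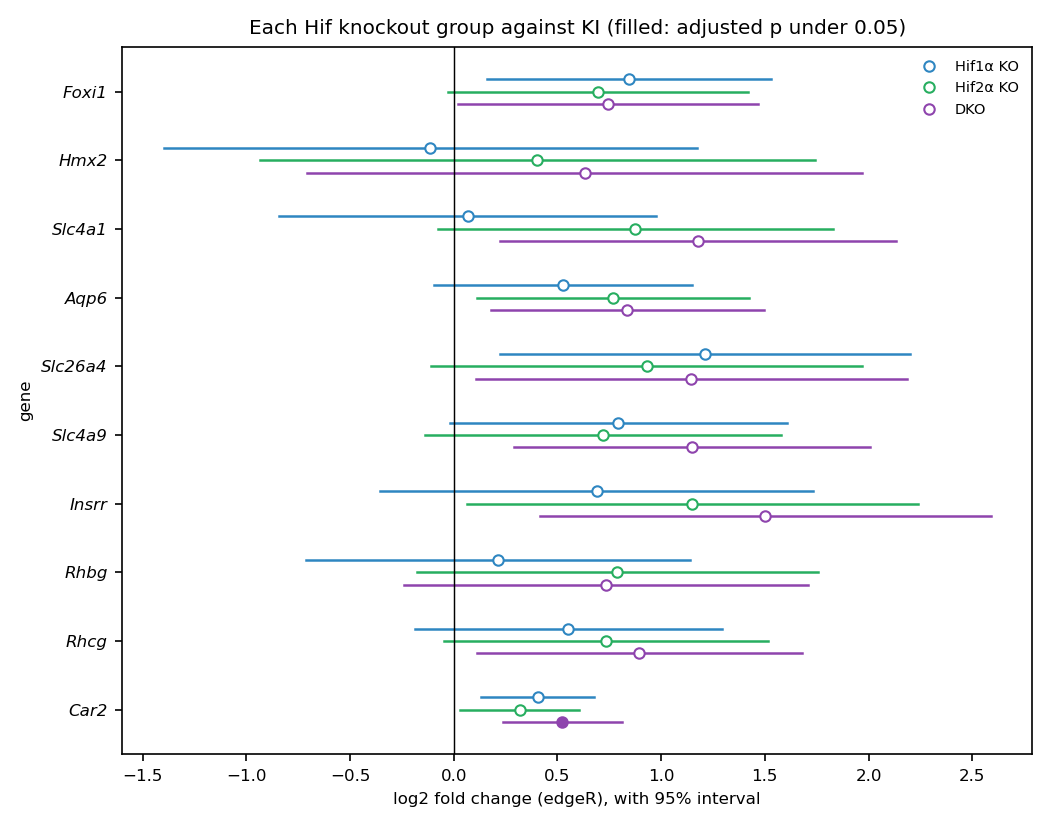
Log2 fold change of each gene against KI with its 95% interval, for the 3 Hif knockout groups; the 1 filled point, Car2 in DKO, has an adjusted p under 0.05. Most points lie right of 0 and many intervals reach it.

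The gene called was Car2, at 178.1, 206.9 and 189.3 CPM in DKO kidneys and 155.5, 122.3 and 121.8 CPM in KI kidneys. The kidneys did not overlap, and the log2 fold change was 0.52 ± 0.14 (SE, edgeR adjusted p = 0.022). The call was lost without KI kidney 2, KI kidney 3, DKO kidney 2 or DKO kidney 3, with adjusted p between 0.0614 and 0.0936. Without KI kidney 1, 4 genes were higher. Slc4a1 in DKO differed from KI by 1.18 (95% interval 0.22 to 2.13, adjusted p = 0.0948) and Insrr by 1.502 (0.41 to 2.59, adjusted p = 0.0649), both on the log2 scale. For Hmx2 in Hif1α KO against KI the difference was −0.11 with an interval from −1.40 to 1.17, so a change of 2-fold either way could not be told at this number of kidneys.

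Hif1α KO and Hif2α KO kidneys were compared directly. Of the 10 genes, 0 passed by edgeR or by DESeq2, where edgeR called 0.329% of all genes higher in Hif1α KO and 0.0999% lower. At an unadjusted p under 0.05 there were 0, against 7.99% of all genes higher and 6.96% lower. The differences ran from −0.81 for Slc4a1 (95% interval −1.68 to 0.07) to 0.28 for Slc26a4 (−0.64 to 1.21) on the log2 scale. Whether the effect of losing Hif1α differed with Hif2α state was tested as an interaction, and 0 of the 10 genes passed by edgeR or DESeq2, as did 0% of all genes in each direction by edgeR. The lowest unadjusted p was 0.103, for Foxi1.

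To compare the genes with one another, each was set against Foxi1 in the same kidney as the log2 ratio of TPM, which does not depend on library scaling. Against Cre(−), the Slc26a4 to Foxi1 ratio was 0.13 to 0.81 in Cre(−) kidneys and −1.22 to −0.90 in KI kidneys, so pendrin was lower relative to Foxi1 with no overlap. Insrr to Foxi1 was −1.28 to −0.73 in Cre(−) kidneys and −2.71 to −2.56 in KI kidneys. Aqp6 to Foxi1 went the other way, 0.86 to 1.53 in Cre(−) kidneys and 1.79 to 2.25 in KI kidneys. Car2 to Foxi1 overlapped in all 4 comparisons. With 3 KI kidneys against 4 Cre(−) kidneys the exact two-sided permutation test cannot go below 0.0571, and 7 of the 9 ratios reached that value. In Hif1α KO, where 4 against 4 allow 0.0286, 7 of 9 ratios were lower (exact permutation p = 0.0286, adjusted over 9 ratios 0.0367), and Aqp6 and Car2 did not pass (adjusted p of 0.0964 and 0.457). For Slc4a1 to Foxi1 the 4 Hif1α KO kidneys lay between −1.70 and −1.45, under every kidney of the other groups.

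**Figure D4:**
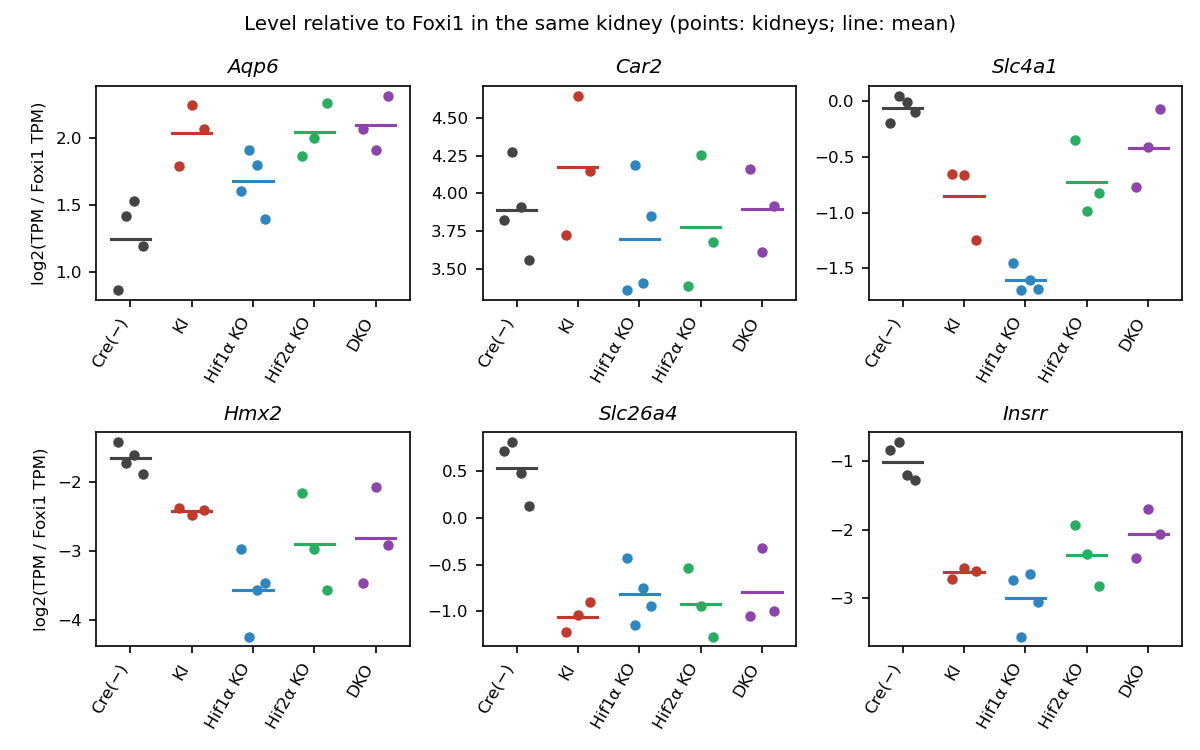
Log2 ratio of TPM to that of Foxi1 in the same kidney for 6 genes; points are kidneys and lines are group means. Slc26a4, Insrr and Hmx2 lie lower in every group with Cre than in Cre(−), Aqp6 lies higher in KI, Hif2α KO and DKO, and Car2 overlaps.

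A further 24 genes known from intercalated cells were read from the same fits. In KI against Cre(−), 19 were lower and 1 higher (31.6% of all genes were higher), and the median log2 fold change was −1.62. Of the proton pump genes, Atp6v1b1 fell by 2.27, Atp6v0a4 by 1.53 and Atp6v1g3 by 1.75 on the log2 scale, and Atp6v0d2 differed by −0.43 (edgeR adjusted p = 0.0741). Kit, a receptor tyrosine kinase that other cells also carry, rose by 2.62. Kit was also higher in Hif1α KO, Hif2α KO and DKO than in Cre(−), as was Spink8, so that 2 genes were higher in each, against 31.9%, 32% and 30.4% of all genes. In DKO against KI 5 were higher and 1 (Kit, −1.25) lower, where 6.53% of all genes were higher and 6.19% lower. Those higher numbered 0 without KI kidney 3 or DKO kidney 3, 1 without KI kidney 2 and 2 without DKO kidney 2, and the Kit call was lost without KI kidney 3 or DKO kidney 2.

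The 5 other genes whose pattern was nearest to Foxi1 over the 17 kidneys, by the root mean square difference of centred log2 CPM, were Atp6v1g3 (0.238), Nudt4 (0.261), Rap1gap (0.261), Slc16a5 (0.261) and Kcnj10 (0.273). Rhcg stood nearest of the members, at rank 59 of 14711 genes, and Insrr farthest, at rank 6252. This measure also grows where a gene changes more than Foxi1. In KI against Cre(−) the log2 fold change was −3.71 for Insrr and −1.98 for Foxi1.

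Genes of other nephron cells were lower in KI kidneys as well, and whether the fall differed between these lists was not tested. The median log2 fold change was −1.52 for 10 principal cell genes (8 lower, 1 higher), with Aqp2 at −1.28, Avpr2 at −1.68 and Aqp4 at −2.57 (adjusted p = 0.0677), while Aqp3 rose by 1.27. It was −2.54 for 6 distal convoluted tubule genes (6 lower), −2.42 for 6 thick ascending limb genes (6 lower), −4.82 for 8 proximal tubule genes (8 lower) and −1.80 for 5 podocyte genes (4 lower). Of 11 genes of Notch signalling and principal cell fate, 4 were higher and 3 lower, near the 31.6% and 29.3% of all tested genes. Of those named, Notch2 (0.36) and Jag1 (0.74) rose, Elf5 (−2.19), Gata2 (−1.13) and Gata3 (−0.69) fell, and Notch1 (0.02) and Mib1 (−0.16) did not pass. Adam10 (95.8 to 106.2 CPM in Cre(−), 196.0 to 216.1 CPM in KI) was also higher in every KI kidney. So was Grhl2 (15.2 to 23.1 CPM in Cre(−), 28.0 to 38.8 CPM in KI). Of 7 red cell genes tested 1 was lower, of 8 macrophage and osteoclast genes 4 were higher and 1 lower, and of 5 adipocyte genes 2 were higher, beside the same shares of all genes. The adipocyte sum was 3297 TPM in KI kidney 2 and 137.2 and 260.7 TPM in the other KI kidneys. All 10 intercalated cell genes were lower in KI with any 1 kidney left out. The part of these other cells in the result was not tested.

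**Figure D5:**
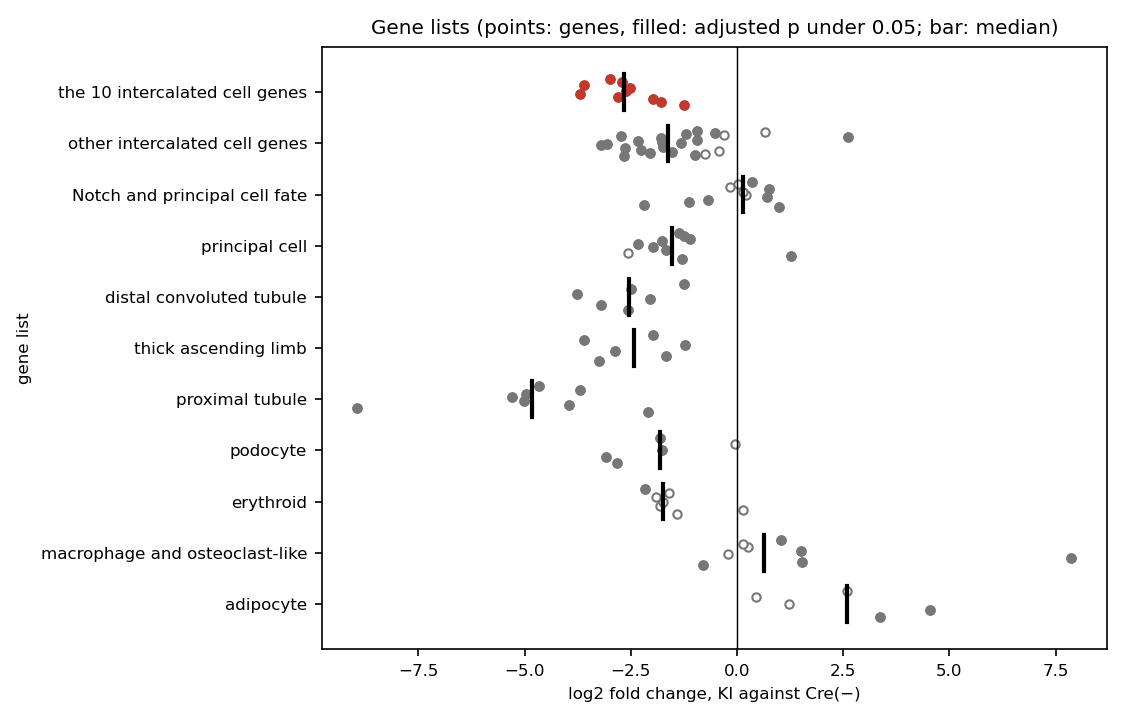
Log2 fold change of each gene in KI against Cre(−), by gene list; filled points have an adjusted p under 0.05 and bars are medians. The 10 intercalated cell genes lie between −3.71 and −1.25, with proximal tubule genes further left and the Notch list around 0.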

How the data were processed

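Kidney RNA was sequenced as 75 nt single-end reads on a NextSeq 500 from TruSeq stranded libraries of RNA with an integrity number above 8. The submitters' notes and methods name Trim Galore 0.6.6 with cutadapt 2.5, STAR 2.7.9a and RSEM 1.3.3. They name hg38 for alignment and hg38 or GRCm38 for annotation, and the files list mouse transcripts, so GRCm38 was used here. The authors deposited expected counts per transcript, which are estimated and not normalized, and TPM per transcript, which the authors scaled for length and library total.

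Of 119353 transcripts 116770 (97.8%) matched GENCODE M21. They were summed to 35971 genes, and counts were rounded. edgeR 4.0.16 (R 4.3.3) was fitted once to all 17 libraries with TMM factors and filterByExpr at a minimum count of 10. The quasi-likelihood test was adjusted by Benjamini-Hochberg over 17011 genes at 0.05. Intervals are 95%. Single values were tested by exact two-sided permutation with scipy 1.17.1. DESeq2 1.42.0 and limma 3.58.1 were alternatives, as were other scalings, filters and left-out kidneys. The fits were tested on simulated data in which few genes changed, up or down alike, in KI only. Many more genes differed in the real kidneys, so that test does not check the scaling.

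The members and gene lists were chosen with earlier results of these data known. Named were the 10 members, the first 4 genes of a list where a result turned on them, with genes called against most of their list, and the 5 genes nearest to Foxi1 with a mean TPM of at least 1. Other genes were named after their values were seen. Nothing says beyond the sample titles that replicates were separate animals, so p-values measure the spread between these kidneys. The smallest level a library shows was taken as 3 counts (0.122 to 0.182 CPM), for counting error only.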

Additional observations from a re-analysis of the deposited data

Results flagged for a closer look

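Car2 in Cre(−) kidney 2 was at 552 CPM, far from the other Cre(−) kidneys, which lay between 426.2 and 436.9 CPM. Its gap to the nearest, divided by the range of the group, was 0.915, above the critical value of Dixon's test at 95%. Of 20 sets of 4 kidneys examined for the 10 genes, 1 was picked out in this way, and chance picks out about 1 set in 20. Without this kidney Car2 was still lower in KI.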

How the results depend on the processing

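In KI against Cre(−), all 10 genes were lower under every alternative run, and Hif2α KO and DKO kept 9 and 9 and Hif1α KO 9 to 10. Scaling by library totals moved the median of all genes against Cre(−) by 0.345 to 0.456 on the log2 scale, and the share of calls that were higher in KI from 51.9% to 74.1%, in Hif2α KO against KI from 53.4% to 79.6%, in DKO against KI from 51.3% to 74.6% and in Hif1α KO against Hif2α KO from 76.7% to 59.7%. In DKO against KI, 1 gene was higher, where 6.53% of all genes were, and this became 5 with DESeq2, where 8.52% were. On library totals it was 3, where 1730 of the 17011 tested genes were higher. It became 0 with a log2 fold change of at least 1 or with these 2 groups fitted alone. The count ran from 0 to 4 with 1 kidney left out. In Hif1α KO against KI, 0 became 2 with DESeq2, where 4.51% of genes were higher, and ran from 0 to 1 with 1 kidney left out. For the left-out kidneys, the fold threshold and the groups fitted alone, the share of all genes was not counted. The cause of these shifts was not tested.

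The KI mean as a percentage of Cre(−) moved by more than the spread in TPM for Aqp6 (57.9%), Slc26a4 (11.4%), Slc4a9 (22.1%), Insrr (11.3%), Rhbg (22.5%), Rhcg (24.5%) and Car2 (40.1%), and on library totals for Rhcg (22.4%) and Car2 (36.8%). Aqp6 in DKO against Cre(−) turned from −0.41 to 0.043 on library totals and to 0.14 with limma on log2(TPM + 1) or log2(TPM + 0.1), where it was 0.14. Slc4a9 in Hif1α KO against Hif2α KO turned to −0.0026, −0.19 and −0.20 in the same order.

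With 1 kidney left out, some log2 differences changed sign, and not all of them were near 0 with all kidneys. The largest with all kidneys were 0.63 for Hmx2 in DKO against KI, and −0.52 for Hmx2 and −0.46 for Insrr in Hif1α KO against Hif2α KO. Against KI, Hmx2 ran from −0.56 to 0.30, Slc4a1 from −0.22 to 0.65 and Rhbg from −0.12 to 0.55 in Hif1α KO, and Hmx2 from −0.46 to 0.82 in Hif2α KO and −0.15 to 1.05 in DKO. Between Hif1α KO and Hif2α KO, Foxi1 ran from −0.11 to 0.37, Slc26a4 from −0.13 to 0.80, Slc4a9 from −0.28 to 0.51, Car2 from −0.014 to 0.16, Hmx2 from −0.98 to 0.34, Insrr from −0.79 to 0.13 and Rhcg from −0.54 to 0.068.

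Replicate numbers did not pair the kidneys: 31 same-numbered pairs correlated from −0.222 to 0.249 (median −0.034). With the replicate number as a block, 10 genes were lower in KI and 1 was higher in DKO than in KI. Leaving out the mitochondrial genes, an alternative chosen after seeing the data, gave 10 and 1. With 3 or 4 kidneys per group and 8 to 43 counts of Hmx2 in Hif1α KO libraries, small differences were not detectable.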

Other observations

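Within each group with Cre, the kidney with the highest median level of the 10 genes had the lowest Gpnmb. In KI this was kidney 1, at a median of −2.10 on the log2 scale relative to the Cre(−) mean and 11057 TPM of Gpnmb. In Hif1α KO it was kidney 1, at −1.50 and 2289 TPM, in Hif2α KO kidney 1, at −1.39 and 4170 TPM, and in DKO kidney 2, at −1.25 and 2456 TPM. These kidneys also had the highest summed TPM of thick ascending limb, distal convoluted tubule and proximal tubule genes in their groups. Gpnmb in KI kidney 3 was close to that in KI kidney 1, at 11144 TPM. These relations were noticed in the values and were not tested.

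Hif1α KO kidney 2 and Hif2α KO kidney 2 had the lowest median of their groups, at −3.13 and −2.83. They did not have the highest Gpnmb there. It was at 5931 TPM against 6385 TPM in Hif1α KO kidney 4, and at 7422 TPM against 9465 TPM in Hif2α KO kidney 3. In KI (kidney 2, 12214 TPM) and DKO (kidney 1, 5059 TPM) the kidney with the lowest median had the highest Gpnmb.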
